A study of Homo sapiens with 8 samples.

Results

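The mitochondrial chromosome carries 37 genes of its own, and their RNA was followed here through the 4 cell lines of the MCF10A breast cancer progression series. The members were all genes annotated on that chromosome, whose symbols start with MT-: 13 mRNAs, 2 rRNAs and 22 tRNAs, out of 56632 genes in the count table. M1 is MCF10A, an immortalized, non-tumorigenic human mammary epithelial line. M2 is MCF10AT1k.cl2, derived from M1 by transfection with T24-HRAS (an activated form of HRAS) and recovered from a xenograft. M3 (MCF10Ca1h) and M4 (MCF10CA1a.cl1) were established from carcinomas that arose from M2 xenografts, so M2, M3 and M4 all carry the T24-HRAS history. Each line was grown for 8 days as acini in Matrigel in medium with 2% horse serum. EGF (10 ng/ml) was part of the M1 and M2 medium and left out of that of M3 and M4. M3 or M4 against M1 or M2 therefore compares carcinoma-derived cells without EGF with precursor cells given EGF, and origin and medium cannot be told apart. Each line is a single clone or derivative with 2 libraries of poly(A)-selected RNA labelled as biological duplicates.

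Human mitochondrial DNA is a small circle read from both strands as long precursor RNAs. The 2 rRNAs and 12 of the mRNAs come from the same strand, MT-ND6 from the other, and most genes are separated by tRNAs whose excision releases the RNAs on either side. The mRNAs encode core subunits of respiratory complexes I, III and IV and of ATP synthase, the rRNAs build the mitochondrial ribosome, and every other protein of the system, from the RNA polymerase to the remaining subunits, is encoded in the nucleus. Most mitochondrial mRNAs receive a short poly(A) tail after cleavage.

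The boundary between the large rRNA and the first complex I gene shows this layout, and it is printed because MT-RNR2 on its left was called lower in both carcinoma lines and MT-ND1 on its right was not. It lies on the mitochondrial chromosome of GRCh37 at chrM:3200-3334, plus strand, with the 75 bases of the leucine tRNA gene MT-TL1 in capitals. The letters to the left are the 3′ end of MT-RNR2 and those to the right run into MT-ND1.
MT-RNR2 to MT-ND1: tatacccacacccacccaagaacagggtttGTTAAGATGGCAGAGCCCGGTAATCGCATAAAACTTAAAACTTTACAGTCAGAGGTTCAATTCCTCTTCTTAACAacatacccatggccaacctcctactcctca

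In 2 places a pair of reading frames shares bases on 1 mRNA. MT-ATP8 and MT-ATP6, both for ATP synthase, overlap by 46 bases within chrM:8515-8584, and MT-ND4L and MT-ND4, both for complex I, overlap by 7 bases within chrM:10748-10778. Counts of each pair therefore come from the same RNA, and reads inside the capitals could belong to either gene.
MT-ATP8 and MT-ATP6: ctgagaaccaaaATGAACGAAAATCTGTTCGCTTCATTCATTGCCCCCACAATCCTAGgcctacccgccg
MT-ND4L and MT-ND4: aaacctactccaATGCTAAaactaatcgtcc

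In 6 of the 13 mRNAs the annotated gene ends with only the first bases of a stop codon (capitals), which the poly(A) tail completes. Their trailing bases were TA in MT-ND1 and T in MT-ND2, MT-CO3, MT-ND3, MT-ND4 and MT-CYB. MT-ATP6 is annotated in whole codons and is not among the 6, but its last base is also the first base of MT-CO3. The regions of the 6 run over chrM:4248-4277, chrM:5497-5526, chrM:9976-10005, chrM:10390-10419, chrM:12123-12152 and chrM:15873-15902, plus strand. In each, the letters after the capitals belong to the next tRNA gene.
MT-ND1: tccccctcaaaccTAagaaatatgtctgat
MT-ND2: tactaataatcttaTagaaatttaggttaa
MT-CO3: attgatgagggtctTactcttttagtataa
MT-ND3: tagactgaaccgaaTtggtatatagtttaa
MT-ND4: ccgggttttcctctTgtaaatatagtttaa
MT-CYB: tactcaaatgggccTgtccttgtagtataa

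The libraries held between 69669970 and 107350344 counts. As a measure of how far duplicates differed, chi-square per degree of freedom was 6.90 in M2, 122 in M4, 253 in M1 and 319 in M3, so the M2 libraries were by far the closest pair. HRAS was at 154 and 139 CPM (a gene's counts scaled to a fixed library total) in M1 and 160 and 153 in M2, while M3 had 269 and 327 and M4 335 and 352, which did not separate M2 from M1. In the study's supplementary expression table, 6 of 8 columns were closest to the library of the same label, while the columns for M1 replicate 2 and M2 replicate 1 matched each other's libraries. In the numbering of the deposited count columns, the duplicates of M3 and of M4 are set apart, while those of M1 and of M2 are consecutive. With the exchange, the duplicates of M1 and of M2 would be set apart in the same way. Which assignment is right was not tested. The sample labels are used here, and the counts of calls are also given under this exchange. Marker sums are in CPM of all counts. Mammary epithelial markers summed to between 6923 and 14188 CPM. Fibroblast markers summed to 61.7 and 9.16 CPM in M1 and 74.4 and 73.4 in M2, against 9.09 and 16.2 in M3 and 8.00 and 6.60 in M4, with COL1A2 at 0 in all libraries. Leukocyte markers reached at most 54.3 CPM, in M4, carried by CD68, while PTPRC stayed at or near 0. Endothelial and adipocyte markers stayed below 1 CPM. M4 replicate 1 stood apart in nuclear retained RNA (MALAT1 and NEAT1), at 470 CPM where the others ran from 78.7 to 192. The part of these differences in the results was not tested.

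By the sample labels, the mitochondrial genes took the largest share of counts in M1 and the smallest in M3. The 37 genes together held 5.11% and 6.85% of all counts in M1, with M2 at 4.69% and 4.67%, M3 at 2.63% and 3.34% and M4 at 3.59% and 3.42%. The means were 5.98% ± 1.23 for M1 and 4.68% ± 0.011 for M2, as against 2.98% ± 0.50 for M3 and 3.51% ± 0.121 for M4 (SD, n = 2). Every library of M3 and M4 lay below every library of M1 and M2, and both M4 libraries lay slightly above both M3 libraries. Under the library exchange of the supplementary table, M1 would hold 5.11% and 4.69% and M2 6.85% and 4.67%. The highest library would then be in M2, so the order of M1 and M2 depended on the labels. The mean share in M3 was 0.499 of that in M1. In bulk RNA, fewer mitochondrial transcripts per cell and a larger pool of nuclear transcripts cannot be told apart.

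**Figure D1:**
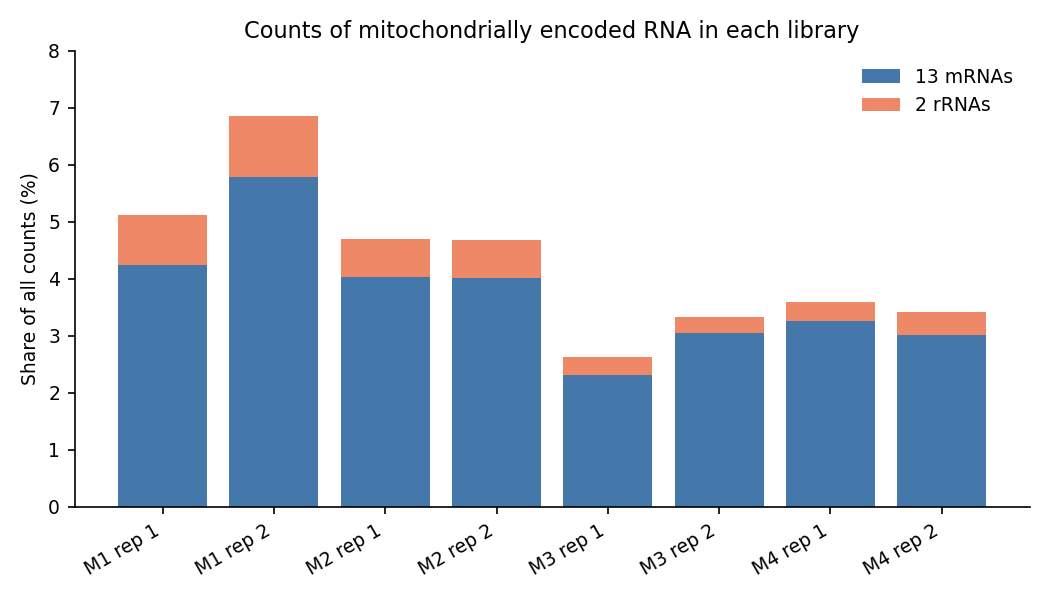
Share of all counts (%) held by the 13 mitochondrial mRNAs (blue) and 2 rRNAs (orange) in each library, by line and replicate. The stacked bars reach 5.11% and 6.85% in M1 and stay at or below 3.59% in the 4 libraries of M3 and M4.

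The mRNAs held 4.25% and 5.78% of counts in M1 and 4.03% and 4.01% in M2, against 2.32% and 3.06% in M3 and 3.25% and 3.02% in M4. The rRNAs held 0.865% and 1.07% in M1 and 0.657% and 0.659% in M2, while M3 had 0.313% and 0.281% and M4 0.338% and 0.399%. In both classes every M3 and M4 library was below every M1 and M2 library. The mean share in M3 was 0.536 of that in M1 for the mRNAs and 0.306 for the rRNAs, and in M4 it was 0.626 and 0.380. The tRNAs gave between 13 and 93 counts per library.

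The gene tests below used edgeR's quasi-likelihood test on all 18431 genes that passed a filter on low counts, with Benjamini-Hochberg adjustment over all of them, and a gene is called at an adjusted p below 0.05. The filter kept 18 members: the 13 mRNAs, the 2 rRNAs and the tRNAs MT-TQ, MT-TA and MT-TS1. CPM values are scaled by TMM, edgeR's correction for library composition.

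MT-RNR2, the RNA of the large subunit of the mitochondrial ribosome, had the lowest fold changes of the rRNAs and mRNAs in M3 and in M4 against M1. It stood at 7099.7 and 9307 CPM in M1, with M2 at 5644 and 5616, M3 at 2720 and 2301 and M4 at 2460.0 and 3085. The highest carcinoma-line library was well under the lowest precursor library, and the M3 and M4 ranges overlapped. Relative to M1, its log2 fold change was -1.71 ± 0.22 (SE) in M3 (edgeR adjusted p = 0.0027) and -1.57 ± 0.22 in M4 (edgeR adjusted p = 0.0023). Relative to M2 it was -1.17 ± 0.22 in M3 (edgeR adjusted p = 0.026) and -1.02 ± 0.22 in M4 (edgeR adjusted p = 0.016). With the library exchange of the supplementary table, the adjusted p became 0.105 for M3 and 0.062 for M4 against M1, 0.083 for M3 against M2 and 0.034 for M4 against M2.

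MT-RNR1, the RNA of the small ribosomal subunit, lies upstream of MT-RNR2 on the same precursor. Its levels were 1347 and 1619 CPM in M1 and 942 and 905 in M2, against 750 and 482 in M3 and 735 and 804 in M4. The M2 duplicates stood between M1 and the carcinoma lines. Against M1 it fell by 1.27 on the log2 scale in M3 (edgeR adjusted p = 0.0088) and by 0.95 in M4 (edgeR adjusted p = 0.017). Against M2 it was not called in M3 (log2 fold change -0.58 ± 0.23, edgeR adjusted p = 0.18) or in M4 (-0.26 ± 0.23, edgeR adjusted p = 0.43).

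The balance between the 2 rRNAs differed between the lines. MT-RNR1 gave 0.1898 and 0.174 counts per MT-RNR2 count in M1 and 0.167 and 0.161 in M2, while M3 had 0.276 and 0.210 and M4 0.299 and 0.260. Every carcinoma-line library was above every precursor library. Both rRNAs together gave 0.204 and 0.186 counts per mitochondrial mRNA count in M1, with M2 at 0.163 and 0.164, M3 at 0.135 and 0.0918 and M4 at 0.104 and 0.132, again without overlap between precursor and carcinoma lines. These ratios sum over members and carry no test. They come from libraries selected for poly(A), and transcripts that lack a long tail were uneven across them: 38 genes for RNAs without a poly(A) tail (mostly histones) summed to 347 and 350 CPM in M1 and 214 and 216 in M2, against 303 and 315 in M3 and 573 and 328 in M4. Their part in the rRNA values was not tested.

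The 3 mitochondrial subunits of complex IV, cytochrome c oxidase, form its core. MT-CO1, which binds the haem and copper site where oxygen is reduced, was at 12573 and 18389 CPM in M1 and 10478 and 10562 in M2, while M3 had 6207 and 7018 and M4 7092 and 7276. Every library of M3 and M4 was lower than every library of M1 and M2. It fell by 1.23 on the log2 scale in M3 (SE 0.23, edgeR adjusted p = 0.011) and by 1.11 in M4 (SE 0.23, edgeR adjusted p = 0.011) against M1. Against M2 the differences were -0.67 ± 0.23 in M3 and -0.55 ± 0.23 in M4 and were not called (edgeR adjusted p = 0.14 and 0.13).

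MT-CO3, a structural core subunit, stood at 6586 and 9127 CPM in M1, with M2 at 6795 and 6671, M3 at 3761 and 3991 and M4 at 3933 and 4069.9. The carcinoma lines sat in a narrow band below the precursor lines. Against M1 it fell by 1.02 in M3 (SE 0.21, edgeR adjusted p = 0.014) and by 0.97 in M4 (SE 0.21, edgeR adjusted p = 0.011), log2 scale. Against M2 it fell by 0.75 in M4 (SE 0.21, edgeR adjusted p = 0.038) and stood at -0.80 ± 0.21 in M3, which was not called (edgeR adjusted p = 0.070).

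MT-CO2, the subunit that receives electrons from cytochrome c, was called in M4 and not in M3. Its levels were 5766 and 7200.3 CPM in M1 and 5436 and 5272 in M2, against 4984 and 5004 in M3 and 3653 and 3907 in M4. M3 was just under M2, and M4 lay under both. It fell in M4 against M1 by 0.78 on the log2 scale (SE 0.19, edgeR adjusted p = 0.018), while in M3 the difference was -0.38 ± 0.19 (edgeR adjusted p = 0.19). The direct comparison of M4 with M3 gave -0.40 ± 0.19 and was not called (edgeR adjusted p = 0.18). Within a library, MT-CO2 gave 0.459 and 0.392 counts per MT-CO1 count in M1 and 0.519 and 0.499 in M2, while M3 had 0.803 and 0.713 and M4 0.515 and 0.537. Both M3 libraries were above all others in this ratio, and M2 and M4 overlapped.

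**Figure D2:**
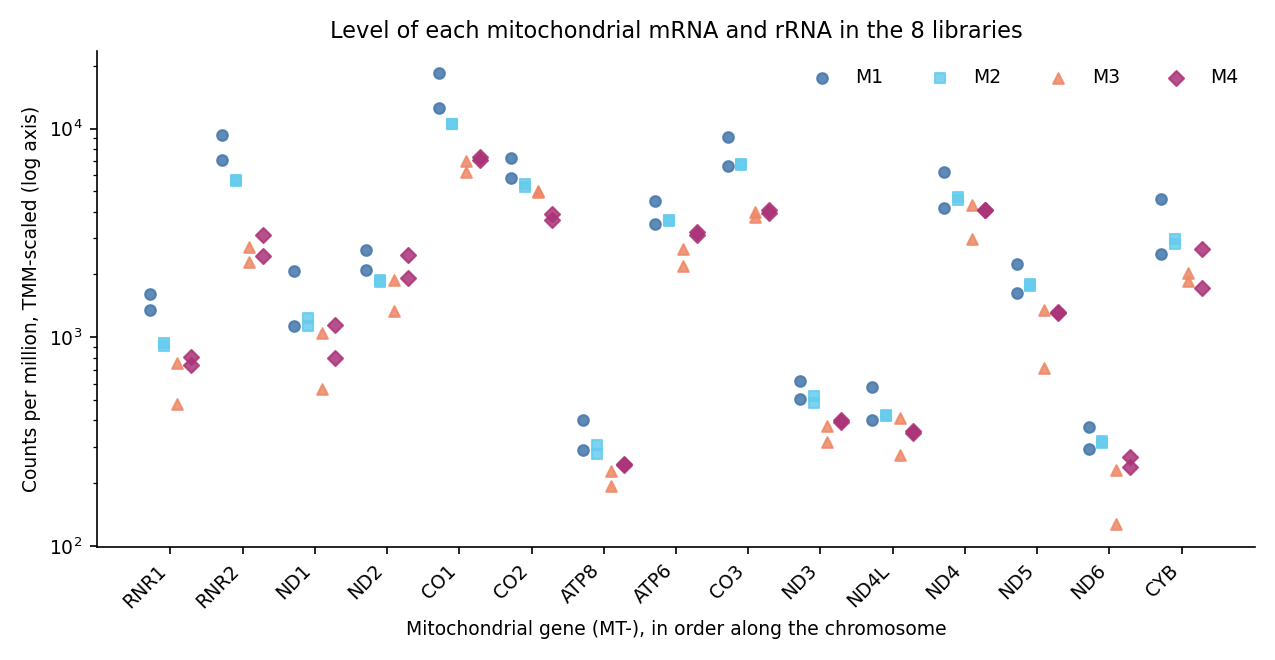
TMM-scaled CPM (log axis) of the 13 mRNAs and 2 rRNAs in order along the chromosome, 1 point per library, with M1 as circles, M2 as squares, M3 as triangles and M4 as diamonds. For MT-RNR2, MT-CO1 and MT-CO3 the triangles and diamonds lie below all circles and squares, while for MT-ND2 the diamonds overlap the circles.

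The ATP synthase pair was called in M3 and not in M4. MT-ATP6, which forms the proton channel, was at 3476 and 4485 CPM in M1, with M2 at 3648 and 3609, M3 at 2192 and 2641 and M4 at 3209 and 3080.2. M3 was lowest and M4 lay between M3 and the precursor lines. MT-ATP8, a small subunit of the same membrane part, was at 288 and 403 CPM in M1 and 278 and 305 in M2, against 194 and 229 in M3 and 248 and 244 in M4. In M3 against M1 both fell, by 0.72 (SE 0.20, edgeR adjusted p = 0.038) for MT-ATP6 and 0.71 (SE 0.19, edgeR adjusted p = 0.034) for MT-ATP8. In M4 the log2 fold changes against M1 were -0.34 and -0.49, and neither was called (edgeR adjusted p = 0.23 and 0.081). The direct comparison of M4 with M3 gave 0.38 ± 0.20 for MT-ATP6 and 0.22 ± 0.19 for MT-ATP8, also not called (edgeR adjusted p = 0.22 and 0.45).

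Complex I, the entry point for electrons from NADH, draws 7 subunits from the mitochondrial genome. MT-ND3 was the complex I member with a call against M1. It stood at 507 and 621 CPM in M1 and 486 and 524 in M2, while M3 had 314 and 377 and M4 392 and 400.2. All carcinoma-line libraries were below all precursor libraries. It fell in M3 against M1 by 0.71 on the log2 scale (SE 0.17, edgeR adjusted p = 0.022), and in M4 the difference of -0.51 ± 0.17 was at the threshold (edgeR adjusted p = 0.0501).

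MT-ND2 had the fold change nearest 0 of the mRNAs in M4 against M1. Its levels were 2094 and 2610.4 CPM in M1, with M2 at 1874 and 1850.4, M3 at 1333 and 1873 and M4 at 2479 and 1928, so the M4 libraries lay inside the span of M1 and M2. Its log2 fold change was -0.55 ± 0.23 in M3 (edgeR adjusted p = 0.13) and -0.09 ± 0.23 in M4 (edgeR adjusted p = 0.78) against M1. MT-ND5 was at 1634 and 2237 CPM in M1 and 1798 and 1755 in M2, against 716 and 1346 in M3 and 1309 and 1328 in M4. Its M3 duplicates were far apart, and its M3 difference from M1 of -0.91 ± 0.30 was not called (edgeR adjusted p = 0.064).

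MT-ND4, MT-ND4L and MT-ND1, also of complex I, overlapped between precursor and carcinoma lines. MT-ND4 ran from 4181 to 6169 CPM in M1 and from 2974 to 4280.5 CPM in M3, with both M4 libraries near 4068 and 4065 CPM. MT-ND4L, on the same mRNA, ran from 404 to 581 CPM in M1 and from 273 to 410 CPM in M3. MT-ND1, next to MT-TL1 and downstream of MT-RNR2 in the sequence above, was at 1139.5 and 2076 CPM in M1 and 1238 and 1133 in M2, while M3 had 567 and 1046 and M4 1149 and 796. MT-ND1 overlapped between M4 and both precursor lines, and the log2 fold changes of -0.995 ± 0.37 in M3 and -0.72 ± 0.37 in M4 against M1 were not called (edgeR adjusted p = 0.095 and 0.17).

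MT-ND6 is the mRNA read from the other strand. It stood at 291 and 371 CPM in M1, with M2 at 313 and 319, M3 at 128 and 232 and M4 at 239 and 266, with no overlap between precursor and carcinoma lines. The differences from M1 were -0.88 ± 0.27 in M3 (edgeR adjusted p = 0.053) and -0.39 ± 0.27 in M4 (edgeR adjusted p = 0.30). As a part of all mitochondrial mRNA counts it was 0.701% and 0.630% in M1 and 0.774% and 0.802% in M2, against 0.497% and 0.765% in M3 and 0.776% and 0.903% in M4, and this overlapped between the lines. Whether the counting used read strand is not given in the sources used here, so reads of MT-ND6 and of precursor RNA from the opposite strand cannot be separated. How far poly(A) selection captured MT-ND6 was not tested.

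MT-CYB, the only mitochondrially encoded subunit of complex III, was at 2503 and 4605 CPM in M1 and 2972 and 2785 in M2, while M3 had 2031 and 1862 and M4 2652.5 and 1728. The duplicates of M1 and of M4 differed widely. Its fold changes of -0.87 ± 0.32 in M3 and -0.70 ± 0.32 in M4 against M1, log2 scale, were not called (edgeR adjusted p = 0.088 and 0.13).

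**Figure D3:**
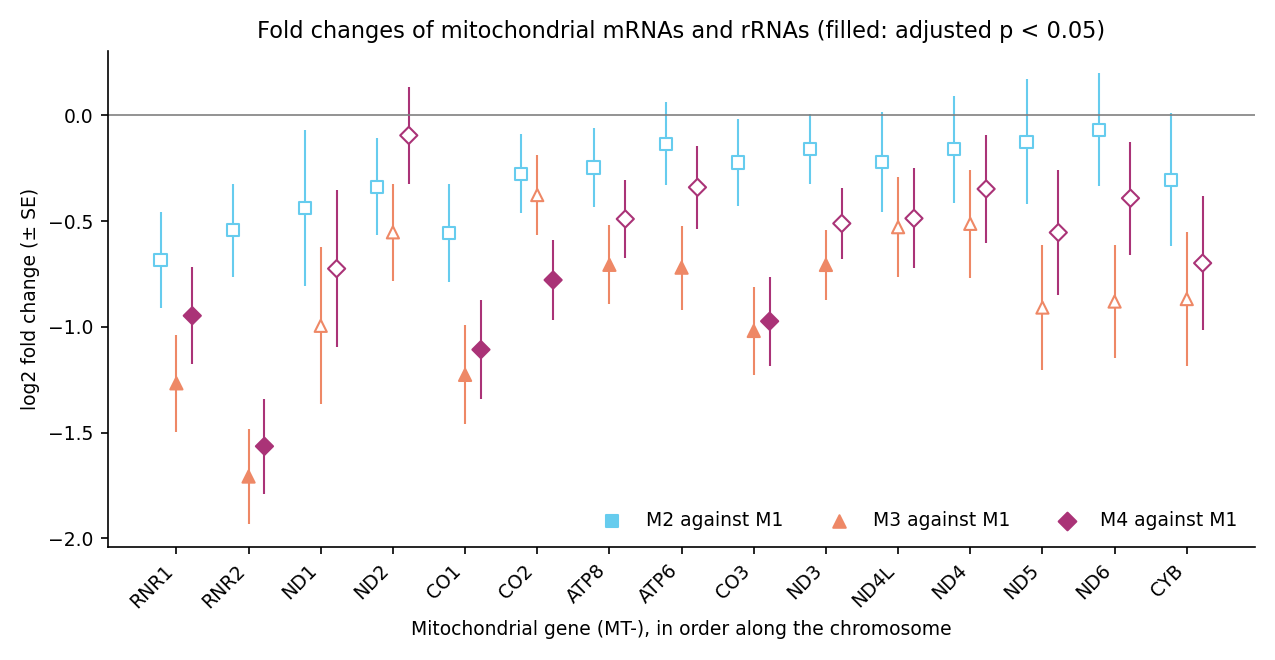
Log2 fold change against M1 with its standard error (edgeR) for each mRNA and rRNA in order along the chromosome, for M2 (squares), M3 (triangles) and M4 (diamonds); filled symbols have an adjusted p below 0.05. All symbols lie below 0, the lowest are those of MT-RNR2 at -1.71 and -1.57, and no M2 symbol is filled.

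By comparison, 0 of 18 members were called in M2 against M1, where 3.37% of all genes tested were called higher and 1.46% lower. All 18 fitted values were below 0, 4 members had an unadjusted p below 0.05, and DESeq2 called 1. MT-RNR1 at -0.68 ± 0.23 (edgeR adjusted p = 0.13), MT-CO1 at -0.56 ± 0.23 (edgeR adjusted p = 0.20) and MT-RNR2 at -0.54 ± 0.22 (edgeR adjusted p = 0.19) were the mRNAs and rRNAs furthest below 0. The median over the 13 mRNAs was -0.22, and over all genes tested it was -0.04.

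In M3 against M1, 7 members were called lower and 0 higher. These were the 2 rRNAs, MT-CO1, MT-CO3, MT-ND3, MT-ATP8 and MT-ATP6. Of all genes tested, 12.9% were called higher and 8.33% lower. The 13 mRNAs had a median log2 fold change of -0.72 and ran from -0.38 to -1.23, beside a median of -0.02 over all genes. Leaving out M1 replicate 2 or M3 replicate 1 left 3 and 4 members called, and the library exchange left 0.

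In M4 against M1, 6 members were called lower and 0 higher: the 2 rRNAs, the 3 complex IV mRNAs and the tRNA MT-TQ. Of all genes, 15.6% were called higher and 15.8% lower. The median over the 13 mRNAs was -0.51. Without M1 replicate 2, M4 replicate 1 or M4 replicate 2 the count was 1 in each case, with MT-RNR2 still called each time, and under the library exchange it was 0.

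Against M2 fewer members passed. In M3, MT-RNR2 was the 1 member called, lower, with 3.98% of all genes called higher and 1.56% lower. In M4, MT-RNR2 and MT-CO3 were called lower, with 11.1% of all genes called higher and 11.1% lower. The calls in M4 ended when any of its 4 libraries was left out, and the call of MT-RNR2 in M3 ended without M2 replicate 1, M2 replicate 2 or M3 replicate 2 (edgeR adjusted p = 0.22, 0.21 and 0.065), its log2 fold change staying between -1.29 and -1.05.

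Between M3 and M4, which were both grown without EGF, 0 members were called, while 7.05% of all genes were called higher in M4 and 9.72% lower. By unadjusted p below 0.05, 1 member passed, MT-TQ, and DESeq2 called 0. Of the 13 mRNAs, 12 had fitted values above 0 in M4 against M3 and MT-CO2 was below, with a median of 0.20. Without M3 replicate 2 there were 2 calls.

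The comparison of the mean of M3 and M4 with the mean of M1 and M2 was added after the values were seen. Exchanging an M1 with an M2 library leaves the samples on each of its sides as they were. Here 10 members were called lower and 0 higher, beside 15.7% of all genes called higher and 13.2% lower. They were both rRNAs and MT-CO1, MT-CO2, MT-CO3, MT-ATP6, MT-ATP8, MT-ND3, MT-ND5 and MT-ND6. The same 10 were the members whose 4 carcinoma-line libraries all lay below the 4 precursor libraries, an arrangement found in 9.25% of all genes tested. MT-RNR2 had a fold decrease of 2.58 (log2 fold change -1.37 ± 0.16, edgeR adjusted p = 0.00095), MT-CO1 of 1.85 (-0.89 ± 0.16, edgeR adjusted p = 0.0065) and MT-CO3 of 1.85 (-0.89 ± 0.15, edgeR adjusted p = 0.0044). These 3 were called under all 16 alternative settings of this comparison. MT-ND2 was at -0.16 ± 0.16 (edgeR adjusted p = 0.51), MT-ND4 at -0.35 ± 0.18 (edgeR adjusted p = 0.18), MT-ND4L at -0.40 ± 0.17 (edgeR adjusted p = 0.11), MT-ND1 at -0.64 ± 0.26 (edgeR adjusted p = 0.105) and MT-CYB at -0.63 ± 0.22 (edgeR adjusted p = 0.069). Without M2 replicate 1 the number of calls was 3, without M2 replicate 2, M4 replicate 1 or M4 replicate 2 it was 4, without M1 replicate 2 it was 5, and under the exchange it was 4.

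The ratio of complex I to complex IV mRNA was highest in M4. The 7 complex I mRNAs gave 0.411 and 0.422 counts per complex IV mRNA count in M1, with M2 at 0.478 and 0.469, M3 at 0.422 and 0.597 and M4 at 0.680 and 0.599. M4 was above M1 and M2 in both libraries, and the M3 duplicates were far apart. This ratio is a description with no test.

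**Figure D4:**
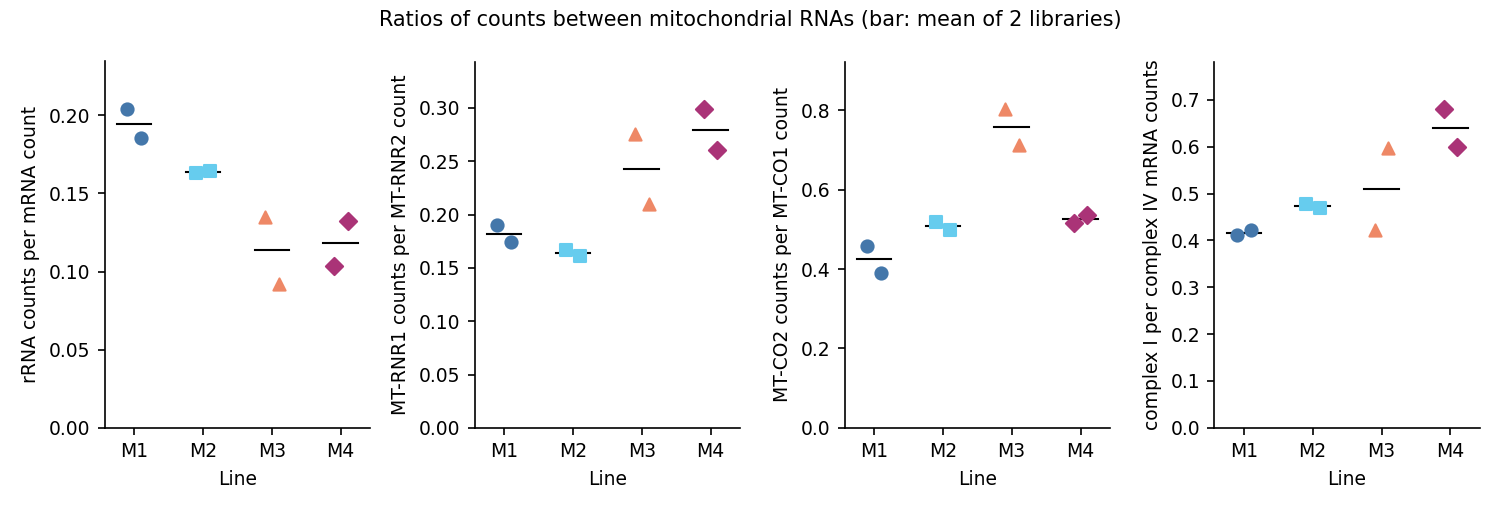
Ratios of counts within each library, by line, with a bar at the mean of 2 libraries: rRNA per mRNA, MT-RNR1 per MT-RNR2, MT-CO2 per MT-CO1, and complex I mRNA per complex IV mRNA. The MT-CO2 to MT-CO1 ratio is highest in M3, at 0.803 and 0.713, and the rRNA ratio is at or below 0.135 in M3 and M4.

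Levels between genes were compared per length, as CPM per kilobase of gene, here without TMM scaling. In M1 the order was led by MT-CO1 at 10031 ± 2373, MT-CO3 at 10019 ± 1997 and MT-CO2 at 9486 ± 1201 (SD, n = 2). The order of these 3 was not the same in the 2 libraries. MT-ATP6 followed at 5847 ± 875 and MT-RNR2 at 5263 ± 846, with overlapping ranges. Within each library MT-ATP6 was the higher, at 5229 against 4666 and 6466 against 5861. MT-RNR1 at 1557 ± 155, MT-ND5 at 1068 ± 204 and MT-ND6 at 631 ± 89.9 were lowest. In M4, MT-CO2 came first at 5754 ± 152, then MT-CO3 at 5316 ± 16.5 and MT-CO1 at 4852 ± 14.3, in this order in both libraries. MT-RNR2 stood at rank 8 in M4 with 1850 ± 256, where it had been at rank 5 in M1. The members that share an mRNA were not at the same level: MT-ATP8 was at 1668 ± 342 beside 5847 for MT-ATP6 in M1, and MT-ND4L at 1658 ± 373 beside 3752 ± 910 for MT-ND4. MT-ATP8 and MT-ND4L are the shortest mRNA genes, with 207 and 297 bases, and how gene length entered the estimate was not tested.

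The tRNAs were almost absent from these libraries. Of 22 tRNA genes, 11 had no count in any of the 8 libraries, and a count of 0 allows up to 3 counts in a library. All 8 on the minus strand had a count, and 3 of the 14 on the plus strand did, MT-TF, MT-TM and MT-TT, with at most 4 counts in a library. Minus-strand tRNAs lie opposite the long RNAs of the plus strand, so with strand use unknown their counts and those of the opposite precursor cannot be told apart. MT-TS1 (serine) gave 18 and 23 counts in M1 and 10 and 15 in M2, against 6 and 11 in M3 and 9 and 8 in M4. MT-TA (alanine) gave 9 and 38 counts in M1 and 4 and 3 in M2, while M3 had 17 and 9 and M4 9 and 1. MT-TN (asparagine) reached 12 counts and did not pass the filter.

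MT-TQ, the glutamine tRNA, was the tRNA with a call. Its gene lies at chrM:4329-4400 on the minus strand, and its last 3 bases, in capitals, overlap the isoleucine tRNA gene MT-TI on the other strand.
MT-TQ: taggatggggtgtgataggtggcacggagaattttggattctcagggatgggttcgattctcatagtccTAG
It gave 22 and 13 counts in M1, with M2 at 12 and 4, M3 at 10 and 11 and M4 at 3 and 2. The M4 libraries were lowest, at or under the 3 counts taken as the limit of detection, and M2 and M3 overlapped. It fell in M4 against M1 (fitted log2 fold change -2.96 ± 0.82, edgeR adjusted p = 0.028), a fit that rests on these few counts. Without any of the 4 libraries of M1 and M4 in turn the call ended (edgeR adjusted p from 0.056 to 0.14).

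Nuclear copies of mitochondrial sequence can take reads that belong to the members. The table held 383 genes named as such copies, and 37 of them had a count. The highest was MTCO1P12, an unprocessed pseudogene on chromosome 1 (chr1:566454-567996, plus strand, GRCh37), whose expected counts in a library ran from 0.642% to 0.769% of those of MT-CO1. It matched MT-CO1 at 98.6% of 1543 aligned bases, and the longest stretch without a difference was 245 bases. A window of 60 bases shows how close the copy is, with the 3 differing bases in capitals, from chrM:6207-6266 and chr1:566757-566816.
MT-CO1: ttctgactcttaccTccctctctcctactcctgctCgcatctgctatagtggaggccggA
MTCO1P12: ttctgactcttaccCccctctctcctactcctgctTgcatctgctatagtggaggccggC

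The other abundant copies were MTCO3P12, MTCO2P12, MTATP6P1, MTND2P28 and MTND1P23, in the same stretch of chromosome 1, and MTND4P12 on chromosome 5. Their identity to the mitochondrial gene ran from 95.8% for MTND4P12 to 99.1% for MTND1P23, and none exceeded 0.663% of the counts of its mitochondrial counterpart. RSEM divides reads that match both by estimate, so these shares are uncertain. With the counts of the copies added, the mean mitochondrial share of M4 minus that of M1 was -2.49 percentage points, against -2.48 without them.

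The nuclear genes that make, keep and use mitochondrial RNA were taken from lists. Their counts can be read against all genes tested, of which 12.9% were called higher and 8.33% lower in M3 against M1. In M4 against M1 these shares were 15.6% and 15.8%, and the median over all genes was -0.02 in both. Shares for the other comparisons are given above. Many of the list calls depended on the labels of M1 and M2: under the library exchange no gene of the lists was called in M3 against M1. The transcription list held 16 genes. POLRMT, the mitochondrial RNA polymerase, was at 37.6 and 41.2 CPM in M1 and 50.1 and 51.0 in M4, with a log2 fold change in M4 of 0.36 ± 0.17 that was not called (edgeR adjusted p = 0.16). TFAM, which packages mitochondrial DNA and opens its promoters, was at 49.4 and 53.1 CPM in M1 and 39.5 and 62.2 in M4 and was not called in M3 or M4 (edgeR adjusted p = 0.51 and 0.98). TFB2M, TEFM and NRF1 had adjusted p of 0.14, 0.53 and 0.11 in M3 and 0.18, 0.40 and 0.23 in M4, and PPARGC1B of 0.11 and 0.060 (edgeR). In M3 against M1 1 of the 16, TFB1M, was called higher and 4 lower, which were PPARGC1A, ESRRA, MTERF2 and MTERF4, and these 5 were also the genes called in M4, in the same directions. Under the exchange 1 of them, PPARGC1A, was called in M4. Without M1 replicate 1 the number lower in M3 was 2, without M4 replicate 1 the number lower in M4 was 2, and without M3 replicate 1 the number higher in M3 was 2.

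Among them PPARGC1A stood out in level. It encodes PGC-1alpha, a coactivator of genes for mitochondrial biogenesis. It was at 19.2 and 27.9 CPM in M1 and 12.8 and 15.02 in M2, against 3.42 and 7.07 in M3 and 0.035 and 0.038 in M4. By the labels, the values went down from line to line without overlap, and in M4 they stood for 4 and 3 counts. With the library exchange M1 would have 19.2 and 12.8 CPM and M2 27.9 and 15.02, which overlap. PPARGC1A fell in M3 against M1 by 2.16 on the log2 scale (SE 0.36, edgeR adjusted p = 0.0063), and it fell in M4 (edgeR adjusted p = 0.00011). Under the exchange the adjusted p was 0.14 in M3 and 0.0023 in M4 (edgeR). ESRRA, a nuclear receptor that works with PGC-1alpha, was at 200 and 126 CPM in M1 and 78.0 and 73.1 in M2, while M3 had 91.2 and 73.4 and M4 78.5 and 93.1. It fell by 0.98 in M3 (SE 0.23, edgeR adjusted p = 0.022) and by 0.92 in M4 (SE 0.23, edgeR adjusted p = 0.020) against M1, log2 scale, and M2 was as low as the carcinoma lines.

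TFB1M, the enzyme that methylates the mitochondrial small rRNA MT-RNR1, was higher in M3 and M4 than in M1, where that rRNA was lower. Its levels were 12.9 and 11.8 CPM in M1, with M2 at 20.6 and 18.9, M3 at 43.1 and 35.7 and M4 at 22.1 and 26.6. It rose by 1.67 on the log2 scale in M3 (SE 0.17, edgeR adjusted p = 0.0012) and by 0.98 in M4 (SE 0.17, edgeR adjusted p = 0.0048) against M1, and under the exchange neither was called (edgeR adjusted p = 0.11 and 0.31). In the list of RNA processing, polyadenylation, stability and decay, which also holds TFB1M, 6 of 24 genes were called higher and 0 lower in M3. In M4 there were 3 higher and 1 lower, with 0 called under the exchange. Neither M4 count was above the share of all genes tested, 15.6% higher and 15.8% lower. Without M1 replicate 1 or M3 replicate 2, M3 had 3 higher, and without M1 replicate 2 it had 2 higher and 1 lower. In M4, 1 was higher without M1 replicate 2 or M4 replicate 2 and 2 without M1 replicate 1 or M4 replicate 1, with 0 lower each time. LRPPRC, which binds and stabilizes mitochondrial mRNAs, was at 283 and 214 CPM in M1, 196 and 261 in M3 and 152 and 228 in M4 and was not called (edgeR adjusted p = 0.76 and 0.26). By the labels, its partner SLIRP rose in M3 by 0.51 (SE 0.15, edgeR adjusted p = 0.048), with 66.2 and 53.1 CPM in M1 and 86.4 and 83.6 in M3. Under the exchange the log2 fold change of SLIRP was 0.07 (edgeR adjusted p = 0.93). HSD17B10, part of the enzyme that cuts the 5′ ends of mitochondrial tRNAs, fell in M4 by 0.44 on the log2 scale (SE 0.12, edgeR adjusted p = 0.025).

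The replication and upkeep of mitochondrial DNA was covered by a list of 15 genes. In M3 7 of 15 were called higher and 0 lower, and in M4 5 higher and 1 lower against M1, with 1 higher, RRM2B, and 0 lower in M4 under the exchange. Leaving out M1 replicate 1 or M1 replicate 2 gave 3 and 4 higher in M3, and in M4 leaving out any of the 4 libraries gave 2 higher, with 2 lower without M1 replicate 1 and 0 lower otherwise. DNA2, a helicase and nuclease, stood at 6.69 and 6.48 CPM in M1 and 15.7 and 18.5 in M3, a rise of 1.38 on the log2 scale (SE 0.21, edgeR adjusted p = 0.0043). Under the exchange that log2 fold change was 0.60 (edgeR adjusted p = 0.57). RRM2B, a subunit of the enzyme that makes deoxynucleotides, rose in M4 by 1.29 (SE 0.18, edgeR adjusted p = 0.0021), and TOP1MT, the mitochondrial topoisomerase I, fell by 0.66 (SE 0.17, edgeR adjusted p = 0.020). POLG, the replicative polymerase, and TWNK, its helicase, were not called in either line (edgeR adjusted p from 0.31 to 0.96). No copy number of mitochondrial DNA was measured.

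The protein partners of the 2 rRNAs were called higher in M3 against M1 in part. Of 79 mitochondrial ribosomal protein genes, 22 were called higher and 0 lower in M3 against M1, with a median log2 fold change of 0.32. In M4 there were 6 higher and 9 lower, with a median of -0.02. Neither M4 count was above the share of all genes tested, 15.6% higher and 15.8% lower. Under the exchange M4 had 0 higher and 3 lower and a median of -0.19. Without M1 replicate 2, M3 had 13 higher and 1 lower. In M4 leaving out M1 replicate 1 gave 5 higher and 4 lower, and leaving out M1 replicate 2 gave 3 higher and 5 lower. Leaving out M4 replicate 1 gave 4 higher and 2 lower there, and M4 replicate 2 gave 2 of each. MRPL3 rose by 1.14 in M3 (SE 0.13, edgeR adjusted p = 0.0015), from 133 and 135 CPM in M1 to 296 and 296 in M3. In M4, MRPL55 rose by 0.96 (SE 0.18, edgeR adjusted p = 0.0072) and MRPL34 fell by 1.22 (SE 0.16, edgeR adjusted p = 0.0016), log2 scale. M2 against M1 had 2 higher and 0 lower, with a median of 0.27. M3 against M2 had 2 higher and 0 lower, with a median of 0.01. By the labels, M2 thus shared most of the median shift of M3 from M1. Together the 79 genes held 0.525% and 0.469% of counts in M1 and 0.596% and 0.591% in M2, against 0.592% and 0.588% in M3 and 0.520% and 0.522% in M4.

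The nuclear subunits of complexes I, III and IV and of ATP synthase were called lower in M4 in most cases. In M3 against M1, 2 of 75 were called lower and 1 higher, with a median log2 fold change of -0.13. This count and its direction rested on single libraries: without M3 replicate 1 there were 11 lower and 0 higher (median -0.33), without M3 replicate 2 0 lower and 4 higher (median 0.05), without M1 replicate 1 0 lower and 1 higher, and without M1 replicate 2 2 lower and 0 higher. The 2 lower were the complex I genes NDUFB11 (-0.69 ± 0.16, edgeR adjusted p = 0.021) and NDUFA10 (-0.68 ± 0.17, edgeR adjusted p = 0.029), and the gene called higher was ATP5PD of ATP synthase (0.51 ± 0.14, edgeR adjusted p = 0.035). In M4 against M1, 50 of 75 were called lower and 0 higher, with a median of -0.73: 19 of 37 in complex I, 9 of 9 in complex III, 10 of 11 in complex IV and 12 of 18 in ATP synthase. Without M1 replicate 1, M4 replicate 1 or M4 replicate 2 the number lower was 31, 22 and 19, and under the exchange it was 35, with 0 higher each time. COX5B of complex IV was at 301 and 266 CPM in M1 and 253 and 233 in M2, while M3 had 297 and 248 and M4 99.8 and 97.6, and fell by 1.52 in M4 (SE 0.15, edgeR adjusted p = 0.00054). NDUFA3 of complex I fell by 1.68 in M4 (SE 0.16, edgeR adjusted p = 0.00047), UQCRB of complex III by 1.26 (SE 0.17, edgeR adjusted p = 0.0017) and ATP5MC2 of ATP synthase by 1.14 (SE 0.21, edgeR adjusted p = 0.0064). Of these 4, ATP5MC2 lost its call under the exchange (edgeR adjusted p = 0.17).

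The mitochondrial and nuclear parts of the same complexes had unlike counts of calls between M4 and M3. In M4 against M3, 36 of the 75 nuclear subunits were called lower and 0 higher (median -0.58), while 0 of the 13 mitochondrial mRNAs were called and their median was 0.20. The nuclear count was 9 without M3 replicate 1, 56 without M3 replicate 2 and 3 without either M4 library, and it was 8 under the exchange, with 0 higher each time. The nuclear subunits held 1.66% and 1.30% of counts in M1, with M2 at 1.502% and 1.49%, M3 at 1.32% and 1.16% and M4 at 0.884% and 0.898%. The mitochondrial mRNAs, at 2.32% and 3.06% in M3 and 3.25% and 3.02% in M4, overlapped between these lines. The difference between the 2 sets was not tested.

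**Figure D5:**
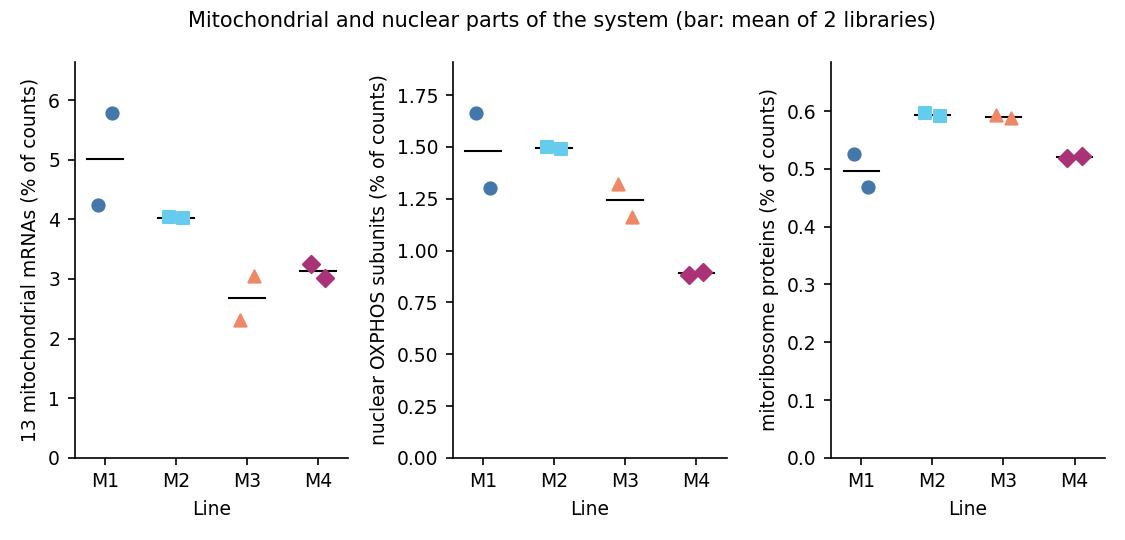
Share of all counts (%) in each library, by line, with a bar at the mean of 2 libraries, for the 13 mitochondrial mRNAs, the 75 nuclear subunits of oxidative phosphorylation (OXPHOS: complexes I, III, IV and ATP synthase) and the 79 mitoribosomal proteins. The nuclear subunits are lowest in M4, at 0.884% and 0.898%, and the mitochondrial mRNAs reach their lowest value in M3, at 2.32%.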

How the data were processed

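The authors sequenced poly(A)+ RNA (TruSeq mRNA kit, paired end), trimmed reads with Trimmomatic, aligned them with STAR to hg19 and counted them with RSEM on GENCODE v19; versions, strand use and the mitochondrial reference inside hg19 are not given in the sources used here. The deposited values are expected counts per gene, not normalized, and were rounded. Genes were placed by ID on GENCODE release 44 lifted to GRCh37, whose mitochondrial chromosome has 16569 bases. edgeR 4.0.16 (R 4.3.3) fitted all 8 libraries with 1 coefficient per line, TMM scaling, filterByExpr and the robust quasi-likelihood test, adjusted over 18431 genes (call: adjusted p < 0.05). DESeq2 1.42.0 was an alternative. The method was tested on simulated data. Whether duplicates came from separate cultures is stated only as biological duplicates. The members and lists were chosen with earlier results of these data known. Exact tests of summed shares and ratios had been planned and are not given, since a p for a score over chosen members would not be independent. All mRNAs and rRNAs are named; nuclear genes were a set of regulators plus, per list, the called genes with the largest changes against M1 and at least 100 counts. Sequences were read from GRCh37 and copies aligned with Biopython 1.88.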

Additional observations from a re-analysis of the deposited data

How the results depend on the processing

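With 2 libraries a line and depths from 69669970 to 107350344 counts, the spread between duplicates, not depth, limits the mRNAs and rRNAs. The tRNAs gave few counts in these poly(A)-selected libraries, and what limited them was not tested. No direction of a called member reversed. Numbers of members called are given in the order M2, M3 and M4 against M1, M3 and M4 against M2, and M4 against M3 (0, 7, 6, 1, 2 and 0 in the report), with 10 for carcinoma lines against precursors. DESeq2 gave 1, 11, 7, 6, 3 and 0, and 12 for the last; no filter on low counts gave 1, 11 and 5 for M2 against M1, M3 against M1 and M3 against M2. Requiring an absolute log2 fold change above 1 as well gave 4 for M3 and 3 for M4 against M1, 1 for M4 against M2 and 1 for carcinoma lines against precursors. Fits of only the lines compared gave 1 for M3 against M1 and 10 for M4 against M2. Scaling by total counts gave 2 for M3 against M2. The library exchange of the supplementary table gave 0 for M2, M3 and M4 against M1 and for M3 against M2, 1 for M4 against M2 and 4 for carcinoma lines against precursors, and with it the M4 minus M1 differences became -1.39 percentage points for the mitochondrial share (from -2.48) and -1.002 for the mRNA share (from -1.88), -0.85 for the log2 tRNA to mRNA ratio (from -1.60) and 0.19 for the log2 ratio of MT-ND6 to the other mRNAs (from 0.33). The cause of these shifts was not tested, and the fits of only the lines compared also used fewer libraries. Size factors by the median of ratios and scaling from nuclear genes kept each count within 1.5 times.

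Leaving out 1 library at a time gave 0 to 0 calls for M2 against M1, 3 to 8 for M3 against M1, 1 to 8 for M4 against M1, 0 to 2 for M3 against M2, 0 to 0 for M4 against M2, 0 to 2 for M4 against M3 and 3 to 12 for carcinoma lines against precursors; a lone library is then assumed to vary like the other lines. With the replicate block, M4 against M2 had 1 call and no other count moved by over 1.5 times. Deviations of same-numbered libraries correlated at -0.088 to 0.255, above 0.1 in 1 of 6 pairs of lines, M3 with M4. The other pairs involve M1 or M2, whose labels are in question, so this check cannot exclude pairing by number. Leave-out values of the shares and ratios, M4 minus M1, ran from -3.35 to -1.61 percentage points for the share, -2.64 to -1.11 for the mRNA share, and on the log2 scale -0.91 to -0.56 for rRNA to mRNA, -1.71 to -1.49 for tRNA to mRNA and 0.22 to 0.45 for MT-ND6; their planned permutation tests were not run.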
